A study of Homo sapiens with 13 samples.

Results

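The subject is a set of 9 regulators that switch on when human pluripotent cells turn to primitive streak and endoderm: TBXT, EOMES, MIXL1, GSC, LHX1, SOX17, FOXA2, GATA4 and GATA6. For each, every deposited ChIP-seq peak within 10 kb of 1 given hg19 start site was taken, which gave 76 of the 136141 peaks in 7 lists. The lists came from ZNF263 homozygous KO cells that ectopically expressed ZNF263-FLAG (FLAG ChIP), from ZNF263 homozygous KO cells (H3K4me3, H3K27ac and H3K27me3) and from WT cells (the same 3 marks). The cells were H1 (WA01), a long-established line of human embryonic stem cells, and KO was the 1 clone labelled 1-10, edited with Cas9. Each list stands for 1 library as labelled, so no difference between KO and WT has a replicate check and none was tested. The lists hold no read counts, so depth is unknown, and where a list has no peak the mark may still be present below the caller's threshold.

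Primitive streak is the region of the early embryo through which cells pass to become mesoderm and definitive endoderm, under Nodal, WNT and BMP signals. The transcription factors that drive these fates are silent or low in human embryonic stem cells. Their promoters are textbook cases of bivalent chromatin, in which H3K4me3, a mark of promoters, lies together with H3K27me3, the mark laid down by Polycomb. H3K27ac marks active promoters and enhancers. ZNF263 is a C2H2 zinc finger transcription factor whose known DNA motif is built from repeats of GGAGGA.

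All 9 start sites carried the same set of peaks. H3K4me3 and H3K27me3 each had a peak over the start site at 9 of 9 genes in KO and at 9 of 9 in WT, a FLAG peak lay over the start site at 9 of 9, and no window held an H3K27ac peak in KO or WT. In KO 21 of 21 H3K4me3 peaks in the windows overlapped H3K27me3, where 30.7% of all KO H3K4me3 peaks did, and in WT 22 of 22 did, where 33.4% of all WT H3K4me3 peaks did. H3K27ac overlapped 0 of these 21 KO peaks and 0 of these 22 WT peaks, against 41.4% of all KO and 42.6% of all WT H3K4me3 peaks. Among bivalent H3K4me3 peaks genome-wide H3K27ac was less common, at 9.23% in KO and 14.0% in WT. The full combination seen at the 9 start sites (H3K4me3 and H3K27me3 in both genotypes, H3K27ac in neither and a FLAG peak) was present at 15.1% of all WT H3K4me3 peaks. Of the 22 WT H3K4me3 peaks in the windows, 14 had it, the 9 over start sites among them.

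**Figure D1:**
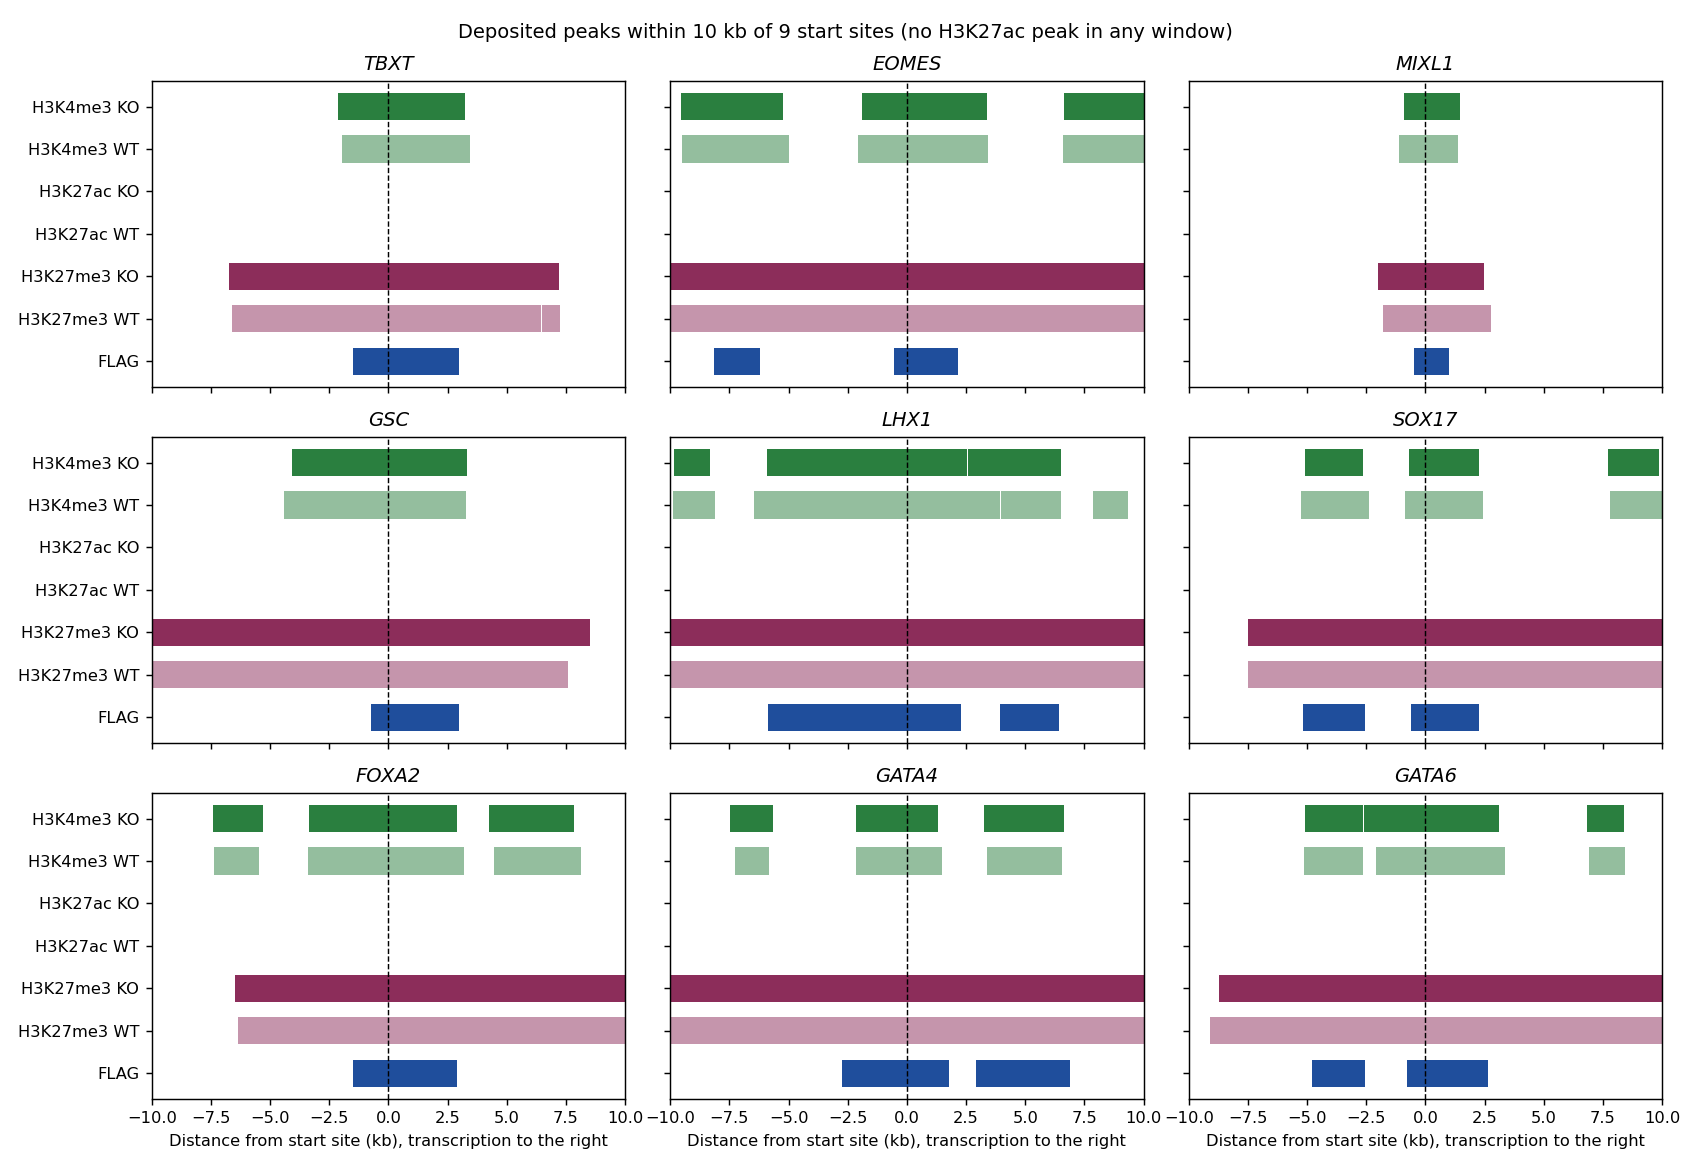
Peaks of the 7 lists within 10 kb of each start site, drawn by distance in kb with transcription to the right and clipped at the window's edge. In each panel KO lies above WT for each mark, with WT in paler colour; the H3K27ac rows are empty at all 9 genes, and H3K4me3, H3K27me3 and FLAG cover all 9 start sites.

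Promoter sequences were searched for GGAGGA, the repeat unit of the known ZNF263 motif. Whether a match lies inside a FLAG peak was not tested, because no position was converted between builds. The RefSeq promoter table (GRCh38.p14) gave promoters for 5 of the 9 genes, and the 250 bases upstream of the start are printed 5′ to 3′ in the direction of transcription, with matches to GGAGGA, or to TCCTCC where the other strand reads GGAGGA, in capitals. The windows are chr6:166168656-166168905 (minus strand) for TBXT, chr3:27722324-27722573 (minus) for EOMES, chr1:226223414-226223663 (plus) for MIXL1, chr14:94770114-94770363 (minus) for GSC and chr18:22169339-22169588 (plus) for GATA6.
TBXT: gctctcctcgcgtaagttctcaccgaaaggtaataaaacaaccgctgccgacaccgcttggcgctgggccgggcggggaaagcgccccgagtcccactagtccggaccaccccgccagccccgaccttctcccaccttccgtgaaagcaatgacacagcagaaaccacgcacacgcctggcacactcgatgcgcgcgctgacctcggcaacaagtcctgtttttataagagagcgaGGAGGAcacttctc
EOMES: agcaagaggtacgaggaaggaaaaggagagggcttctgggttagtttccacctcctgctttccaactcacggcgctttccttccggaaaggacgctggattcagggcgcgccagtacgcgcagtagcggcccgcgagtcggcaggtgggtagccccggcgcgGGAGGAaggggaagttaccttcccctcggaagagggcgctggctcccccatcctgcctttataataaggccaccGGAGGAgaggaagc
MIXL1: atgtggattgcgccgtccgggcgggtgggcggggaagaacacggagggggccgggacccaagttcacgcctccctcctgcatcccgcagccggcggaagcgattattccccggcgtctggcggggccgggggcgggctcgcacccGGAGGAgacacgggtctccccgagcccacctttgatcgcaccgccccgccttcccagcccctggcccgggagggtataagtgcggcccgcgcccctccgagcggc
GSC: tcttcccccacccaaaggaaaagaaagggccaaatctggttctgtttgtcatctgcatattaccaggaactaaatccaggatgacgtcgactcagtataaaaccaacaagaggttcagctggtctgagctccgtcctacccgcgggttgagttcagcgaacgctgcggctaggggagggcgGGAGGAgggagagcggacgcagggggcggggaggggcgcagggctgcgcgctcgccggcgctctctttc
GATA6: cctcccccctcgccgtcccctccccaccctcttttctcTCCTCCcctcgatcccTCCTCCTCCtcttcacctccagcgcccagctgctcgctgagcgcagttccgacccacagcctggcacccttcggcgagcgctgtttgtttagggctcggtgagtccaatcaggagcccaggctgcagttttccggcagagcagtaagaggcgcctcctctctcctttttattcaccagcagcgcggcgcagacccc
Each of these 5 promoters held a match: 1 in TBXT, 2 in EOMES, 1 in MIXL1, 1 in GSC and 3, all on the other strand and a pair of them overlapping, in GATA6. Of 35116 promoters in the table, 31.8% held a match in the same 250 bases. A match is a run of letters and not a shown binding site, and base composition was not matched. A separate TBXT promoter in the table, chr6:166167852-166168101, held none.

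TBXT (Brachyury) is the T-box factor that marks primitive streak and nascent mesoderm. Over its hg19 start site, at chromosome 6 position 166582157, H3K4me3 covered 5369 bp in KO (166578909 to 166584277) and 5418 bp in WT (166578717 to 166584134). The FLAG peak there, 166579170 to 166583661, was 4492 bp wide and lay wholly inside the H3K4me3 peak of both genotypes. Its score of 653.68 exceeded that of 98.7% of all FLAG peaks. H3K27me3 formed a single 13944 bp peak in KO, while WT had a 13073 bp peak and a weak 768 bp peak beside it, which the KO peak overlapped. The territory under H3K27me3 in the window was thus nearly equal, 13.94 kb in KO and 13.84 kb in WT.

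EOMES, a T-box factor required for definitive endoderm, showed 3 H3K4me3 islands under a single H3K27me3 domain. The domain spanned 23328 bp in KO and 24631 bp in WT and filled the whole window in both. The H3K4me3 peak over the start site (chromosome 3, 27764206) was 5298 bp wide in KO and 5498 bp in WT. A further island began 5221 bp upstream of the start in KO and 4976 bp upstream in WT. The third began 6658 bp downstream in KO and 6600 bp downstream in WT, and it was the only 1 of the 3 with no FLAG peak. FLAG peaks lay over the start (27762050 to 27764759, score 354.49) and inside the upstream island (27770409 to 27772338, score 92.96).

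MIXL1, a paired-like homeobox gene of the streak, had the least marked territory of the 9. Its H3K4me3 peak over chromosome 1 position 226411319 was 2374 bp wide in KO and 2512 bp in WT, close to the median width of the whole KO list (2559 bp) and WT list (2499 bp). H3K27me3 covered 4496 bp in KO and 4594 bp in WT, where the other 8 genes had at least 13944 bp in KO and 13073 bp in WT in the peak over the start. The FLAG peak, 226410839 to 226412329, was also the narrowest of the 9 at 1491 bp, and its score of 61.74 exceeded that of only 23.9% of all FLAG peaks. MIXL1 was the only gene of the 9 whose H3K27me3 peak over the start had a score below the ceiling described below, at 382.82 in the KO list and 473.58 in the WT list. Its H3K4me3 peak over the start was at or above that ceiling in both, with scores of 3148.09 in the KO list and 3100 in the WT list.

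GSC (goosecoid) is a homeobox gene of the anterior streak and organizer. A single broad H3K4me3 peak covered its start at chromosome 14 position 95236499, 7404 bp wide in KO and 7684 bp in WT, among the widest 10% of its list in both genotypes. The H3K27me3 peak was 20082 bp wide in KO and 18789 bp in WT, a KO to WT ratio of 1.07 that only TBXT also reached among the 9, to 2 decimals. At TBXT the WT width left out the separate 768 bp peak. By bases covered in the window the ratio was 1.01 at TBXT and 1.05 at GSC. The KO peak of GSC reached further both upstream, by 343 bp, and into the gene and beyond, by 950 bp. The FLAG peak, 95233521 to 95237250, was 3730 bp wide with a score of 466.54.

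LHX1, a LIM homeobox gene needed in the mouse for anterior mesendoderm and the head organizer, had the widest H3K4me3 and FLAG peaks of the 9. H3K4me3 over the start (chromosome 17, 35294772) covered 8472 bp in KO and 10411 bp in WT. That difference came with a shifted border: the next peak downstream began 27 bp after the start site peak in KO and 50 bp after it in WT, and ended 6515 bp from the start in KO and 6500 bp from it in WT. The FLAG peak, 35288883 to 35297043, spanned 8161 bp, wider than 99.5% of all FLAG peaks, and its score of 810.91 was the highest of the 9. A second FLAG peak, 35298712 to 35301218, had a score of 58.28.

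LHX1 also had the one peak in the windows that was absent from the other genotype. The WT H3K4me3 peak at 35302652 to 35304099, 1448 bp wide and 7880 bp downstream of the start, had no KO peak. It made 1 of the 22 WT H3K4me3 peaks in the windows, where 12.3% of all WT H3K4me3 peaks had no KO peak. Its score of 55.4 exceeded that of only 2.89% of the WT list, and it held no FLAG peak. When the WT list was shortened to the length of the KO list, or a gap of up to 1 kb was allowed between matching peaks, the number of WT-only peaks became 0. Shortening dropped the lowest-scoring WT peaks, this peak among them. The KO peak within 1 kb, 35304773 to 35308302, overlapped another WT peak, 35305006 to 35308526. Neither setting thus shows a KO peak at this place. None of the 21 KO H3K4me3 peaks lacked a WT peak (7.30% of the KO list did). For H3K27me3, 0 of 9 KO peaks had no WT peak (11.0% of the KO list) and 0 of 10 WT peaks had no KO peak (21.6% of the WT list).

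SOX17, an HMG-box factor of definitive endoderm, carried 3 H3K4me3 islands inside its window on chromosome 8. They lay under an H3K27me3 domain that spanned 23737 bp in KO cells and 23381 bp in WT cells. The island over the start (55370495) was 2955 bp wide in KO and 3312 bp in WT. One island lay upstream, from 2639 to 5094 bp from the start in KO and from 2374 to 5253 bp in WT, and one began 7737 bp downstream in KO and 7807 bp downstream in WT. All 3 were narrower in KO, and H3K4me3 in the window covered 7.56 kb in KO and 8.39 kb in WT. FLAG peaks lay over the start (score 123.62) and over the upstream island (score 101.25), both lower than the start site scores of the other genes except MIXL1.

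FOXA2 is a pioneer factor of endoderm that opens chromatin at its targets. H3K4me3 over its start (chromosome 20, 22565101) covered 6267 bp in KO and 6611 bp in WT. The H3K27me3 domain was lopsided. It reached 6480 bp upstream in KO and 6365 bp upstream in WT, but 28908 bp downstream in KO and 29478 bp downstream in WT, through the gene and past it. The upstream H3K4me3 island straddled the upstream border of this domain, so FOXA2 was the only gene where part of the H3K4me3 lay outside H3K27me3: 92.1% of H3K4me3 bases in the window were also under H3K27me3 in KO and 91.8% in WT, against 100% at the other 8 genes in both. The FLAG peak over the start, 22562204 to 22566608, had a score of 313.15, and both flanking islands lacked one.

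GATA4 and GATA6 encode zinc finger factors of extraembryonic and definitive endoderm. GATA4 had the widest H3K27me3 peak of the 9, 52969 bp in KO and 53735 bp in WT, which filled the window around chromosome 8 position 11561717. Its 3 H3K4me3 islands were by contrast weak within their lists. The start site peak was 3489 bp wide with a score of 77.92 in the KO list, where 10.9% of peaks scored lower, and 3629 bp wide with a score of 641.51 in the WT list, where 39.6% scored lower. Ranks from lists of unequal length do not measure a change, and the borders of the 2 peaks were only 16 bp apart upstream and 156 bp apart downstream. The FLAG peak over the start, 11558959 to 11563501, was wider than the H3K4me3 peak on both sides, the only such case among the 9, and scored 370.33. A second FLAG peak, 11564657 to 11568594 (score 213.4), lay over the downstream island.

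GATA6 was the only gene whose start site H3K4me3 peak was wider in KO, 5688 bp against 5492 bp in WT. The KO peak reached 2579 bp upstream of chromosome 18 position 19749404 and the WT peak 2106 bp upstream. Between this peak and the upstream island lay 77 bp in KO and 511 bp in WT. H3K27me3 covered 20650 bp in KO and 21068 bp in WT. FLAG peaks lay over the start (19748634 to 19752061, score 377.1) and over the upstream island (19744616 to 19746857, score 52.78). In RefSeq the antisense gene GATA6-AS1 lies beside GATA6, as GSC-DT lies beside GSC and LHX1-DT beside LHX1, and peaks were not assigned between such neighbours.

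The next comparison set the widths of the start site peaks in KO beside those in WT. H3K4me3 over the start was narrower in KO at 8 of 9 genes, with KO to WT ratios from 0.814 at LHX1 to 1.04 at GATA6 and a median of 0.961. Over 24423 H3K4me3 peaks that matched 1 KO peak to 1 WT peak, 54.7% were narrower in KO, the median ratio was 0.989, and the central 90% lay between 0.799 and 1.21. All 9 ratios lay within that central range, although the WT peak of LHX1 overlapped 2 KO peaks and is not among the matched ones. For H3K27me3, 6 of 9 were narrower in KO, with ratios from 0.944 at LHX1 to 1.07 at GSC, against 45.6% of 8086 matched peaks and a median of 1.01; the KO peak of TBXT overlapped 2 WT peaks and is not among the matched ones. Covered bases in the window gave other counts, with less in KO at 7 of 9 genes for H3K4me3 and at 2 of 9 for H3K27me3, where 3 windows were filled in both genotypes. The 9 windows together held 79.9 kb under H3K4me3 in KO and 83.4 kb in WT, a mean per gene of 8.88 ± 3.73 kb in KO and 9.27 ± 4.15 kb in WT (SD over the 9 genes). The KO to WT ratio of these sums was 0.958, next to 0.960 for the bases covered by the whole lists. H3K27me3 covered 149.7 kb in KO and 149.0 kb in WT, a ratio of 1.00 next to 0.963 for the whole lists.

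**Figure D2:**
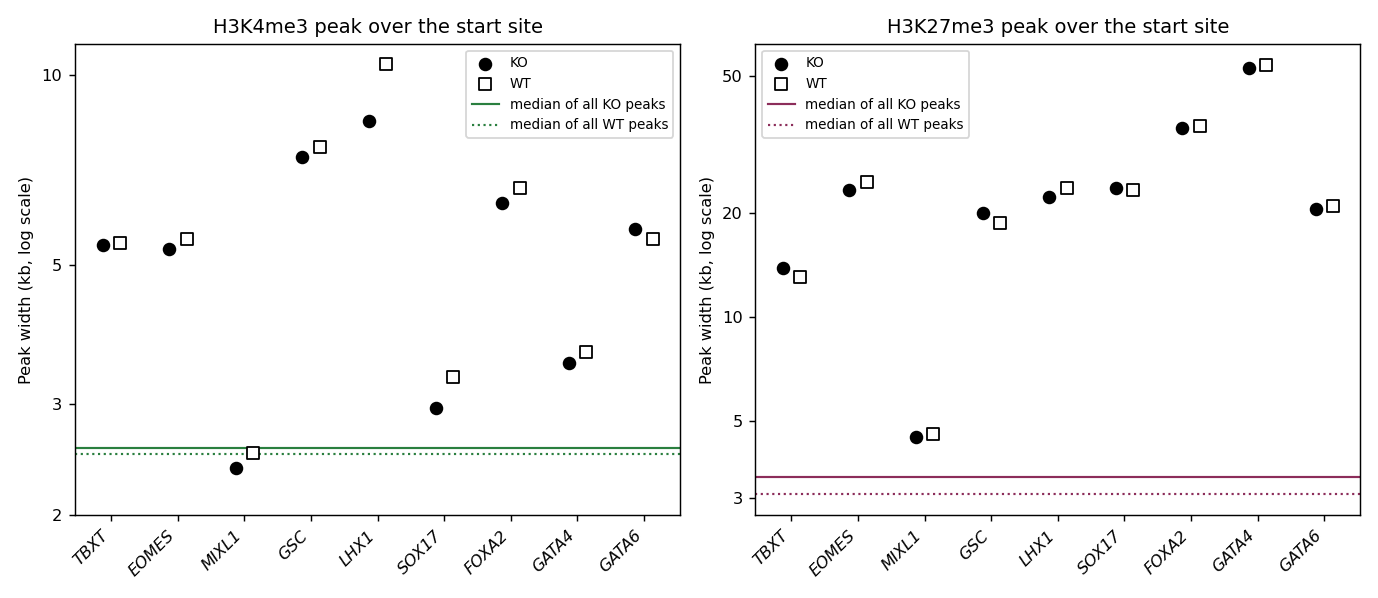
Width in kb, on a log axis, of the H3K4me3 and H3K27me3 peaks over each start site in KO (filled circles) and WT (open squares), with lines at the median width of each whole list. KO and WT points lie close together at each gene, LHX1 H3K4me3 (8472 bp in KO, 10411 bp in WT) is the widest gap, and MIXL1 is the narrowest for both marks.

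Start site peaks were wide for their lists at most of these genes. H3K4me3 was among the widest 10% of its list at 6 of 9 genes in KO and at 6 of 9 in WT, and the exceptions were MIXL1, SOX17 and GATA4. Median widths of the 9 were 5369 bp in KO and 5492 bp in WT, where the median over all bivalent H3K4me3 peaks was 2646.5 bp for KO and 2653 bp for WT. For H3K27me3 8 of 9 were in the widest 10% in each genotype, all but MIXL1. Their median was 22398 bp for KO and 23381 bp for WT, against 3902 bp for KO and 3502 bp for WT over all H3K27me3 peaks that touched H3K4me3. Scores gave less detail, since the authors' peak scores pile up at about 3100: 5 of the 9 start site H3K4me3 peaks in KO and 7 in WT, and 8 of the 9 H3K27me3 peaks in each genotype, were at or above that value. Of whole lists 41.9% of KO and 42.9% of WT H3K4me3 peaks, and 16.1% of KO and 16.4% of WT H3K27me3 peaks, reached it.

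FLAG peaks were then described as a group. The windows held 14 of the 22966 FLAG peaks, 2 at each of 5 genes (EOMES, LHX1, SOX17, GATA4 and GATA6) and 1 at each of 4 (TBXT, MIXL1, GSC and FOXA2). All 14 overlapped both H3K4me3 and H3K27me3 in KO and in WT, a combination found at 23.0% of all FLAG peaks with KO marks and at 25.9% with WT marks. Start site FLAG peaks had a median score of 370.33, and 7 of 9 were in the highest 10% of the list by score. FLAG peaks on both marks had a median score of 147 with KO marks and 145 with WT marks. SOX17 and MIXL1 were the 2 genes outside the highest 10%. FLAG covered 14 of the 21 KO H3K4me3 peaks and 14 of the 22 WT H3K4me3 peaks in the windows, where it covered 40.5% of all KO and 39.3% of all WT H3K4me3 peaks. Of bivalent H3K4me3 peaks 62.6% in KO and 61.6% in WT held a FLAG peak. The next share was taken over bivalent peaks at least as wide as the narrowest start site peak, 2374 bp in KO and 2512 bp in WT. Of those, 74.8% in KO and 75.5% in WT held a FLAG peak, as did 14 of 16 in the windows in each genotype. A FLAG peak is thus common at bivalent regions in general. These cut-offs lie below the median bivalent width, and no share was computed for bivalent peaks as wide as most of the 9. The tagged protein was expressed ectopically at a level not stated in the labels, and binding by endogenous ZNF263 at these genes was not analysed here.

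The position of FLAG peaks relative to the start was uneven. In 7 of 9 genes the middle of the FLAG peak lay downstream of the start, from 265 bp at MIXL1 to 1113.5 bp at GSC. It lay upstream at LHX1, by 1809 bp, and at GATA4, by 487 bp. The middle of the H3K4me3 peak lay downstream at 5 of 9 genes in each genotype, and that of the H3K27me3 peak at 6 of 9 in each. No share over other start sites was computed, so these counts have no background beside them. At 8 of 9 genes the start site FLAG peak was wholly inside the H3K4me3 peak in both genotypes, GATA4 being the exception, and over all FLAG peaks that touched H3K4me3 the share inside was 56.1% in KO and 55.5% in WT. Across the 9 genes, FLAG width and H3K4me3 width had a Spearman rho of 0.600 in KO and 0.483 in WT, given as a description of 9 loci whose peak widths share the same FLAG library.

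**Figure D3:**
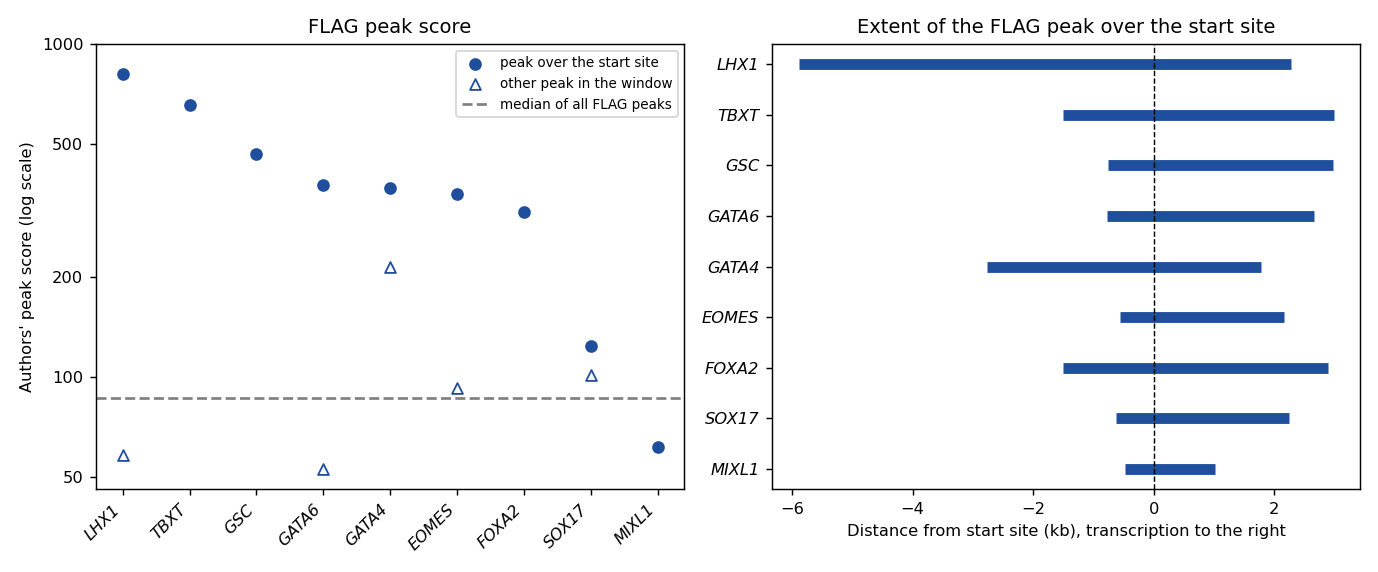
Left, the authors' FLAG peak score on a log axis for the peak over each start site (filled) and for other FLAG peaks in the window (open triangles), with the median of all FLAG peaks as a dashed line. Right, extent of the start site peak in kb with transcription to the right; 8 of 9 scores lie above the list median, MIXL1 (61.74) lies below it, and LHX1 reaches furthest upstream (5889 bp).

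Away from the start sites, H3K4me3 formed 12 further peaks in KO and 13 in WT, at 6 of the 9 genes. TBXT, MIXL1 and GSC had none. Of the 12 in KO 5 held a FLAG peak, with a median H3K4me3 width of 3395 bp, and 7 did not, with a median of 2143 bp. In WT 5 of 13 did, with a median of 2880 bp, and 8 did not, with a median of 1832.5 bp. Widths of islands with and without a FLAG peak overlapped: the widest island in KO, the downstream one of EOMES at 4388 bp, held none. A link between island width and FLAG was not tested. Islands with a FLAG peak were the upstream ones of EOMES, SOX17 and GATA6 and the downstream ones of GATA4 and LHX1. H3K27me3 overlapped every one of these islands in both genotypes. With the start site peaks included, 79.0 kb lay under both marks in KO and 82.4 kb in WT over the 9 windows.

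The nearest H3K27ac peak lay well outside the 10 kb window at each start site, and no genome-wide distance was computed for comparison. The median distance was 165.6 kb in KO and 96.6 kb in WT, and the shortest was 40.9 kb in KO (EOMES) and 36.0 kb in WT (MIXL1). At EOMES the distances were alike, 40.9 kb in KO and 41.0 kb in WT, as they were at FOXA2 with 77.8 kb in KO and 78.1 kb in WT and at GATA4 with 96.4 kb in KO and 96.6 kb in WT. They differed most in proportion at MIXL1, with 84.3 kb in KO and 36.0 kb in WT, and at LHX1, with 165.6 kb in KO and 80.5 kb in WT. The WT peaks nearest these 2 genes had scores of 212.55 at MIXL1 and 43.86 at LHX1, where the WT H3K27ac list starts at 40 and has a median of 119.75. The opposite shift was seen at GATA6 (337.9 kb in KO, 427.1 kb in WT), SOX17 (254.8 kb in KO, 321.8 kb in WT) and GSC (317.8 kb in KO, 361.6 kb in WT). The KO peaks nearest GATA6, SOX17 and GSC scored 60.23, 52.19 and 41.64, where the KO H3K27ac list starts at 40 and has a median of 111.81. KO was farther at 3 genes and nearer at 6. Those 6 include EOMES, FOXA2 and GATA4, where the distances were alike, so the genes had no common direction.

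**Figure D4:**
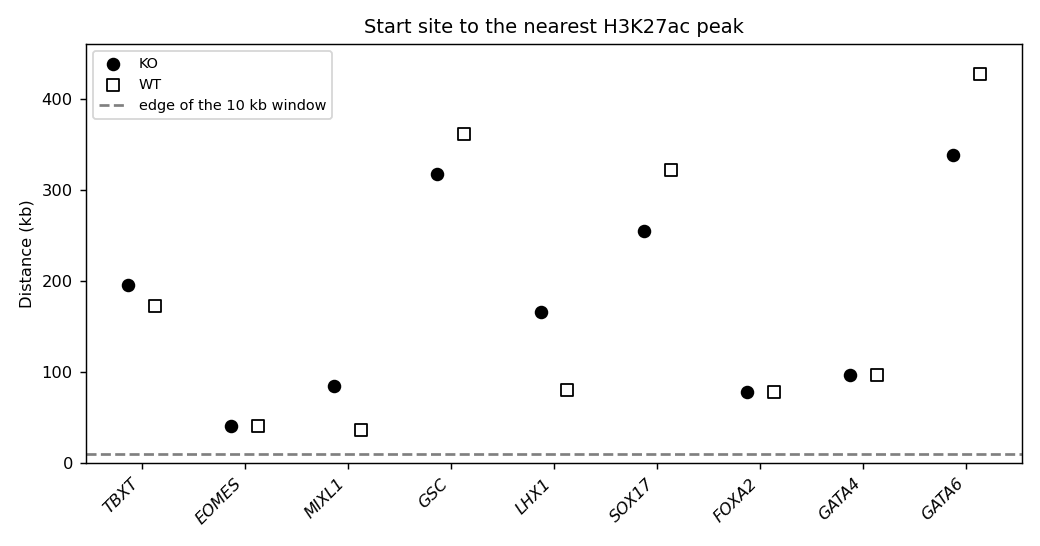
Distance in kb from each start site to the nearest H3K27ac peak in KO (filled circles) and WT (open squares), with the 10 kb window edge as a dashed line. All points lie far above the line, KO and WT nearly coincide at EOMES, FOXA2 and GATA4, and TBXT, MIXL1 and LHX1 have the nearest peak closer in WT.

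Peaks at the edge of the window show what the 10 kb limit kept and left out. The outermost peaks kept were the LHX1 upstream H3K4me3 peaks, whose near edges lay 8328 bp from the start in KO and 8115 bp in WT. The closest ones left out were a strong LHX1 downstream H3K4me3 peak, at 10001 bp in KO and 10234 bp in WT with a score of 3100 in each list, and the GATA4 upstream FLAG peak at 10704 bp (score 131.61), next to an H3K4me3 island at 10951 bp in KO and 10830 bp in WT.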

How the data were processed

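ChIP-seq was made from 13 samples of H1 cells, and the 7 deposited peak lists of 6 histone libraries and 1 FLAG library were used. Groups came from the sample titles. The 2 WT libraries of endogenous ZNF263 and the 4 inputs were not analysed here. Labels of the endogenous libraries also name the FLAG list, and no source says whether their reads entered it. The submitters' processing notes name hg19, Bowtie2 and Picard without versions. Every deposited peak name starts with MACS. The version of the caller, its controls and any pooling: not given in the sources used here. Peak scores are deposited as the authors' values on an unstated scale, and were used only within a list.

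A peak belonged to a gene when it overlapped the start site plus and minus 10 kb by at least 1 bp, and all 9 genes were named. Start sites came from the rule that defines the gene set. Strands came from the RefSeq promoter table for 5 genes and from general knowledge for the other 4. The members and lists were chosen with earlier results of these data known. A peak was shared when it overlapped the other genotype's list by 1 bp, bivalent when H3K4me3 and H3K27me3 overlapped. Percentages over whole lists are descriptions of 1 library each. Overlaps were computed in python 3.11.15 with numpy 2.4.6 and pandas 2.3.3, rank correlations with scipy 1.17.1, and plots with matplotlib 3.10.9; the overlap steps were tested on simulated data. No hg19 annotation or genome was used, so other genes of the pathway, the ZNF263 locus, cell type markers and motifs inside FLAG peaks were not analysed here. Neighbouring genes and promoters came from RefSeq on GRCh38.p14, and no position was converted between builds.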

Additional observations from a re-analysis of the deposited data

How the results depend on the processing

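For the 37 results 130 alternative values were computed, of which 125 stayed within 1.5 times and 5 moved further. H3K27ac counts, 0 at every setting, are among the 125. So are all KO to WT ratios of covered length, which ran from 0.801 to 1.06, and some crossed 1. The H3K4me3 ratio went from 0.863 to 1.002 at LHX1 and from 1.06 to 0.998 at GATA4 with 5 kb windows. At FOXA2 it went from 0.987 to 1.01 with 25 kb. The summed H3K27me3 ratio, 1.005, became 0.999 with 5 kb and 0.987 with 25 kb. All 9 genes stayed bivalent in KO and in WT with windows of 5 kb or 25 kb, with an overlap of 50% of the smaller peak, and when both marks had to cover the start site itself; H3K27ac peaks numbered 0 in each window tried, up to 25 kb. With only the better-scoring 50% of every list there were 7 H3K4me3 peaks in KO and 7 in WT, and 7 bivalent genes in each, because SOX17 and GATA4 have no H3K4me3 peak there. Merging peaks up to 3 kb apart lowered H3K4me3 peaks from 21 to 14 in KO and from 22 to 13 in WT, and only the WT change exceeded 1.5 times. The WT-only H3K4me3 peak count became 0 with lists of equal length and 0 with peaks up to 1 kb apart shared. No paired analysis was possible because each arm held 1 library. Depth is unknown, so no floor can be given, and a peak absent from a list is not shown to be an unmarked region.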
